A study of Mus musculus with 6 samples.

Results

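The genes described here encode the nonmuscle actin and tubulin cytoskeleton of the mouse and the proteins that build it, cut it, pull on it and anchor it. They were taken by name: every row of the deposited table whose symbol belongs to the α-, β- or γ-tubulins (Tubb3 left out), the Arp2/3 subunits or the capping protein subunits, and every row on a list of 34 named actin, myosin, tropomyosin, linker and filament genes. The rule used names and no measured value, though it was set with earlier results of these data known. It gave 55 of the 11955 rows, and 1 listed gene, Cnn1, was not analysed here. The set also holds genes typical of smooth muscle, namely Acta2, Actg2, Myh11, Tagln, Myl9 and Tpm2.

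Actin filaments are polymers of actin monomers that give a cell its cortex, its stress fibres and its protrusions. Monomers are held by thymosins and profilin, branched filaments are started by the Arp2/3 complex, ends are closed by capping protein, old filaments are cut by cofilins, and nonmuscle myosin II pulls filaments past each other. Microtubules are built from dimers of α- and β-tubulin. In cultured chondrocytes a rounded shape with cortical actin goes with the cartilage programme, and a spread shape with stress fibres goes with its loss.

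The study deals with Eldr, a long noncoding RNA, in chondrocyte senescence. RNA sequencing was done on 6 mouse libraries labelled as chondrocytes, 3 with the genotype control and 3 with the genotype Eldr cKI. Age, sex, strain, the control's alleles and the driver of the Eldr allele are not given in the sources used here, and no label says that the libraries came from separate animals or cultures. P-values here therefore rest on the spread between these libraries, which may be technical. In the main fit that spread was taken from a trend over genes by mean level, not from each gene's own values. Eldr itself was not analysed here.

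The libraries were shallow and mixed in content. The depth read from the steps between low values was roughly 64167 to 239144 fragments, and 4420 to 8969 genes per library were listed above 0. Mitochondrial genes held 8.51% to 68.3% of all FPKM (fragments mapped to a gene, scaled to its length and to the fragments mapped in the library), and predicted genes with Gm names held 67.3% in Eldr cKI replicate 1 against 4.97% to 17.9% elsewhere. The cell type label was not borne out by its markers: the 7 measured of 14 cartilage genes summed to 1.25 to 12.7 FPKM, and Col2a1, the main cartilage collagen, was listed at 0 in 4 of the 6 libraries. Cardiomyocyte genes summed to 1324 to 5726 FPKM in the same libraries. The libraries are called below by their labels.

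Some of these genes have near-identical copies, which bears on how far their levels can be told apart. The first 60 coding bases of the 2 cytoplasmic actins are shown because the proteins differ almost only at this end. They were read from GENCODE M21 transcripts on GRCm38, and capitals mark bases of Actg1 that differ from Actb.
Actb (chr5:142903115-142906754, minus strand): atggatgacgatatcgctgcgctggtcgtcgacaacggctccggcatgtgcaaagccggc
Actg1 (chr11:120345690-120348542, minus strand): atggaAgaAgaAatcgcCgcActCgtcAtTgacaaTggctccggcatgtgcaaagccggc
The stretch differed at 9 bases, and the whole coding sequences were 88.7% identical. No window of 150 bases of the Actb transcript occurred in a transcript of another annotated gene, whereas 43.5% of such windows of Actg1 did, in 3 predicted genes.

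The α-tubulins were closer still. Over the coding sequence Tuba1b was 98.3% identical to Tuba1a and 97.9% to Tuba1c. Of the 150-base windows of Tuba1a, Tuba1b and Tuba1c, 54.7%, 57.9% and 46.7% occurred in another gene, with predicted genes of Gm names among them. The counting of reads with several alignments is not stated in the labels, so the split of reads among these 3 genes, and the level of Actg1, is uncertain. Myl12a and Myl12b were 96.5% identical in coding sequence, and Tubb2a and Tubb2b 96.5%. Other copies touched Capza1, of whose windows 51.0% occurred in the predicted gene Gm3608, and Tpm3, with 32.2% in another gene. Of the Arpc4 windows 6.32% lie in the overlapping gene Ttll3.

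Cytoskeletal genes were among the better detected in these shallow libraries. Of the 55 members, 32 (58.2%) were listed above 0 in every library, against 13.0% of all rows and 14.4% of the genes tested below. A further 8 were above 0 in 5 libraries, and 3 (Actg2, Arpc1a and Tubg1) were above 0 in 1 library only. The number of members above 0 was 51, 44 and 41 over the control libraries, then 40, 49 and 47 over the Eldr cKI ones. The fragments behind them were few. By transcript length and estimated depth, the 55 genes together rested on about 1358, 306 and 243 fragments by control replicate and 330, 417 and 2439.6 by Eldr cKI replicate. Fewer than 10 fragments stood behind 48 of the 55 in control replicates 2 and 3, and behind 17 in Eldr cKI replicate 3. Actb, Tuba1b, Tuba1c and Myh9 were the 4 genes with 10 or more estimated fragments in every library.

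**Figure D1:**
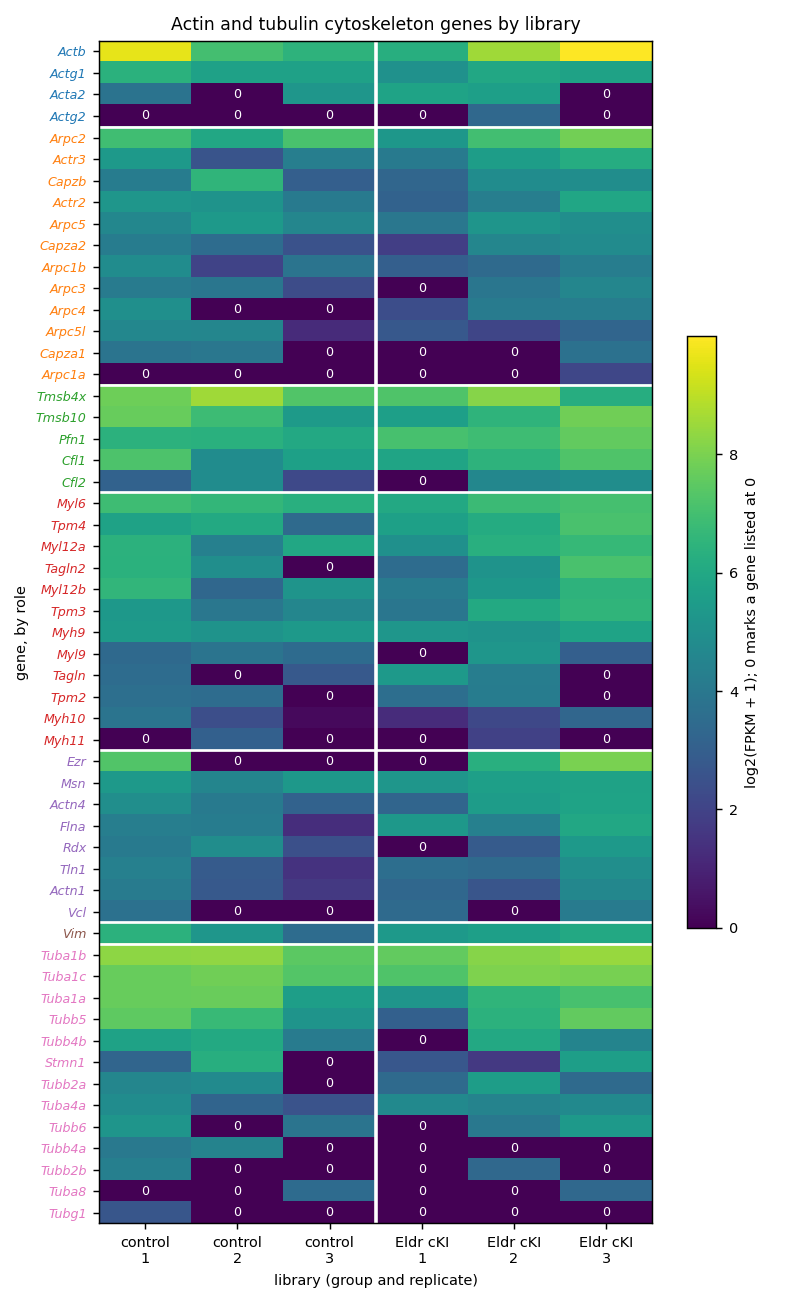
Level of each of the 55 genes in each library as log2(FPKM + 1), with genes in rows ordered by role and by mean level and the 3 control and 3 Eldr cKI libraries in columns. Actb, Tuba1b, Tuba1c and Tmsb4x form bright rows in every library, and zeros, marked 0, number from 4 in control replicate 1 to 15 in Eldr cKI replicate 1.

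Eldr cKI was compared with control to ask which cytoskeletal genes differ with the Eldr cKI genotype. None of the 55 genes passed: 0 were higher and 0 were lower at an adjusted p of 0.05 (limma, Benjamini-Hochberg over 10772 genes). Over all genes 0% were called higher and 0.0278% lower. All 55 members had the mean FPKM of 0.5 needed to enter the fit. At an unadjusted p under 0.05 there was 1 member, Tubb4a, or 1.82%, against 2.34% of all genes. Tubb4a was lower in Eldr cKI, as were 1.66% of all genes at that p, while 0.678% of all genes were higher and 0 members were. The smallest adjusted p of a member was 0.959.

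The group means leaned slightly up. Mean log values were higher in Eldr cKI for 35 of the 55 genes (63.6%) against 48.9% of all genes, and the median log2 fold change was 0.14 against -0.04 over all genes. Its direction and size moved with single libraries. Without control replicate 3 it was 26 of 55 with a median of -0.10, and without Eldr cKI replicate 3 it was 24 of 54 with a median of -0.16. The medians of all genes were then -0.22 and -0.61. The lean was larger without control replicate 1, at 37 of 54 with a median of 0.72 (all genes 0.46), and without Eldr cKI replicate 1, at 44 of 55 with a median of 0.56 (all genes 0.29). With mitochondrial and predicted rows left out it was 38 of 55 with a median of 0.60 (all genes -0.02). The median of the members exceeded that of all genes in all 15 settings. These reuse the same libraries, and some cannot change the members' fold changes, such as the fit with no filter on mean FPKM. For 49 of the 55 genes the difference between group means was smaller than the pooled standard deviation within groups on the log2(FPKM + 1) scale. The 3 libraries of 2 members lay wholly above the controls, Pfn1 and Flna, which is 3.64% of the members against 1.25% of all genes. For 0 members did they lie wholly below, against 2.53% of all genes. A gene with a 0 in each group cannot have groups that lie wholly apart. Of the members 58.2% were above 0 in every library, against 14.4% of all genes tested, so these shares are not of like genes.

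**Figure D2:**
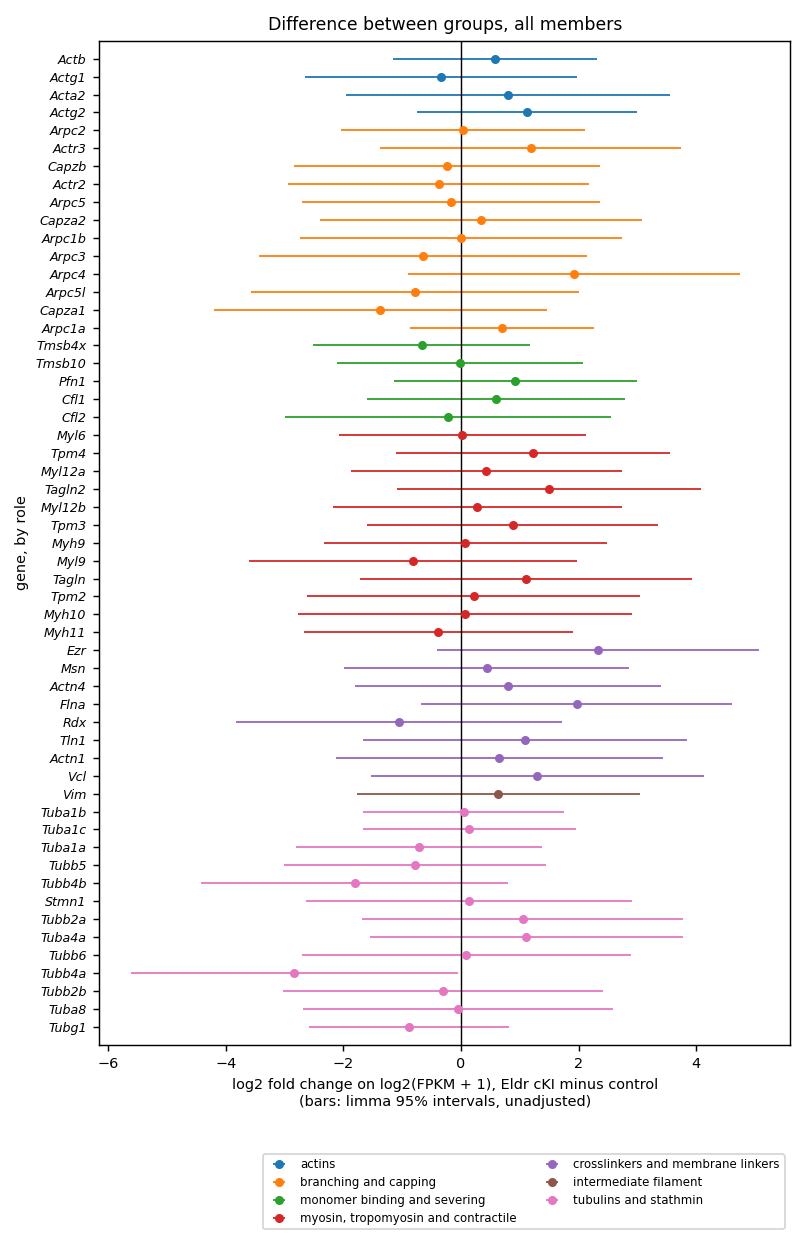
Log2 fold change of each of the 55 genes, Eldr cKI minus control, on the log2(FPKM + 1) scale, with unadjusted limma 95% intervals as bars and roles as colours. The intervals of 54 genes cover 0, and that of Tubb4a, from -5.62 to -0.06, ends just below it.

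Actb, the β-cytoplasmic actin found in nearly every cell, was the most abundant member by mean. It was at 792, 126 and 87.0 FPKM by control replicate, with 76.1, 377 and 1016 by Eldr cKI replicate. The groups overlapped across their whole width: the highest and the lowest library were both Eldr cKI, and the range was 13.3-fold. Its log2 fold change was 0.58 (limma SE 0.88, 95% interval -1.15 to 2.31, adjusted p = 0.999). These levels rested on about 255, 15.5 and 14.1 fragments by control replicate and 15.1, 49.99 and 467 by Eldr cKI replicate.

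Actg1, the γ-cytoplasmic actin, varied far less. It was at 82.6, 51.5 and 51.9 FPKM among controls (62.0 ± 17.8, SD, n = 3), whereas Eldr cKI libraries had 32.6, 61.8 and 53.1 (49.2 ± 14.99, SD, n = 3), a range of 2.53-fold. Its log2 fold change was -0.34 (limma SE 1.18, adjusted p = 0.999). The ratio of Actb to Actg1 on the FPKM scale was therefore 9.59, 2.45 and 1.68 over the control libraries, then 2.34, 6.10 and 19.1 over the Eldr cKI ones. The ratio was high in control replicate 1 and Eldr cKI replicates 2 and 3 and low in the other 3 libraries, a split that crosses the groups. Housekeeping genes (14 genes) were also highest in those 3 libraries, with sums of 1685, 1299.9 and 1497 FPKM by control replicate, with 812, 1669.9 and 2190.01 by Eldr cKI replicate, and the part of library content in the ratio was not tested.

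The smooth muscle actins were sparse. Acta2, which marks smooth muscle and activated fibroblasts, was listed at 12.9, 0 and 36.5 FPKM among controls, whereas Eldr cKI libraries had 54.0, 48.9 and 0. Each group had 1 library at 0 (limma: 0.80 as log2 fold change, SE 1.41, adjusted p = 0.999). Actg2, the enteric smooth muscle actin, had a value above 0 in 1 library, Eldr cKI replicate 2, of 9.29 FPKM, which is about 0.856 of 1 fragment. The heart actin outside the set was more abundant than Acta2 in all 6 libraries: Actc1, the cardiac α-actin, was at 269, 458 and 376 FPKM over the control libraries, then 241, 804 and 341 over the Eldr cKI ones. Actc1 exceeded Actb in control replicates 2 and 3 and Eldr cKI replicates 1 and 2.

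**Figure D3:**
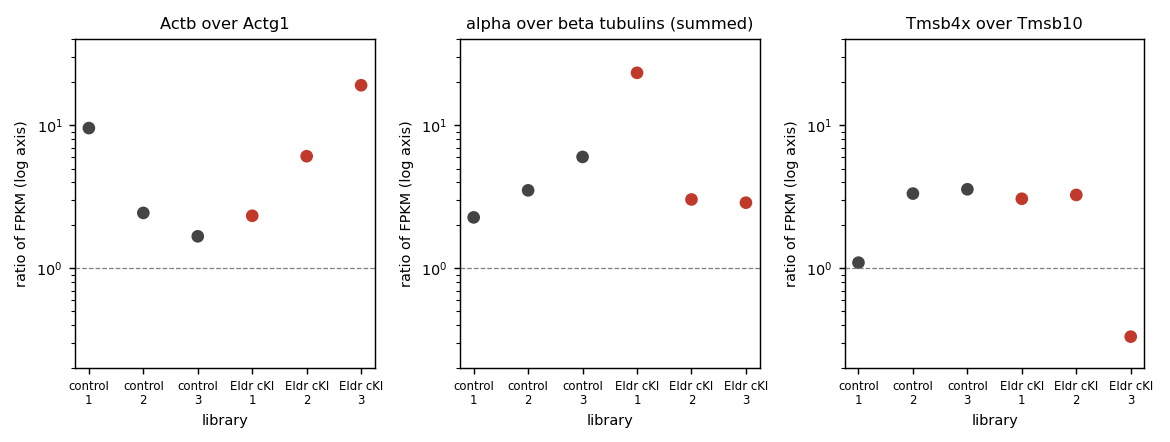
Ratio of FPKM per library, on a log axis, for Actb over Actg1, summed α- over summed β-tubulins, and Tmsb4x over Tmsb10, with controls in grey and Eldr cKI in red. Actb over Actg1 runs from 1.68 to 19.1, α over β from 2.28 to 23.4, and Tmsb4x over Tmsb10 from 0.333 to 3.58. The groups overlap in each ratio, with controls at 1.68 to 9.59, 2.28 to 6.03 and 1.10 to 3.58. The values of 19.1, 23.4 and 0.333 each belong to a single Eldr cKI library.

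Among the proteins that hold or cut actin, Pfn1 stood apart by its groups. Pfn1, profilin, loads monomers with ATP and feeds them to growing filaments. It was at 85.4, 79.8 and 64.4 FPKM by control replicate (76.5 ± 10.9, SD, n = 3), with 136, 117 and 191 by Eldr cKI replicate (148 ± 38.1, SD, n = 3). The 3 Eldr cKI libraries all lay above the 3 controls, unlike Actb, whose lowest library was Eldr cKI replicate 1. Its log2 fold change was 0.92 (limma SE 1.05, 95% interval -1.14 to 2.99, adjusted p = 0.959), which did not pass, and it stayed between 0.72 and 1.07 when any 1 library was left out. Per the authors' deposited table Pfn1 had a p-value of 0.0182 with a q-value of 0.704. It was the 1 member with a p under 0.05 there, where 1.98% of rows had one. About 4.41 to 12.3 fragments stood behind each control and 6.98 to 39.3 behind each Eldr cKI library.

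The 2 β-thymosins, which hold actin monomers in reserve, did not vary together. Tmsb4x was at 222, 383 and 152 FPKM among controls (252 ± 118, SD, n = 3), whereas Eldr cKI libraries had 148, 290.0 and 74.7 (171 ± 109, SD, n = 3), highest in control replicate 2 and lowest in Eldr cKI replicate 3. Tmsb10 was at 202, 115 and 42.6 FPKM over the control libraries, then 48.3, 88.8 and 224 over the Eldr cKI ones, where replicate 3 was the highest library. Tmsb4x exceeded Tmsb10 by 3.07-fold to 3.58-fold in 4 libraries, was close to it in control replicate 1 (1.097) and was below it in Eldr cKI replicate 3 (0.333). Markers of macrophages and other leukocytes, cells rich in Tmsb4x, summed to 6.88 FPKM in Eldr cKI replicate 3, with 2 of 7 above 0, and to 134 to 289 elsewhere, and their part in this was not tested. The log2 fold changes were -0.67 for Tmsb4x (limma SE 0.94, adjusted p = 0.999) and -0.01 for Tmsb10 (limma SE 1.06, adjusted p = 0.999).

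Cfl1, the main nonmuscle cofilin, was at 147, 28.2 and 49.98 FPKM by control replicate, with 56.8, 87.5 and 148 by Eldr cKI replicate. The highest libraries of the groups were level (limma: 0.60 as log2 fold change, SE 1.12, adjusted p = 0.999). Cfl2, the cofilin of muscle, was listed at 0 in Eldr cKI replicate 1 and at 3.63 to 28.4 FPKM in the other 5 libraries.

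**Figure D4:**
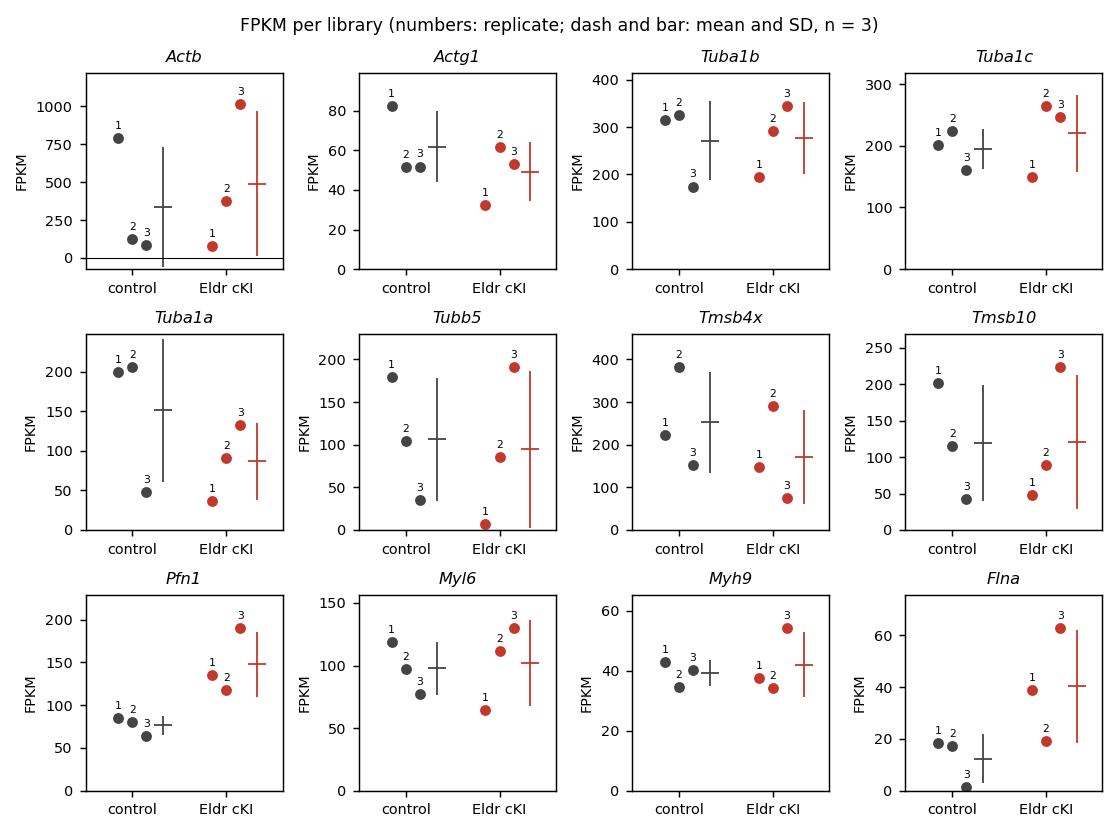
FPKM of 12 genes in each library, controls in grey and Eldr cKI in red, numbered by replicate, with the mean and SD of each group (n = 3) as a dash and bar. Values of the groups overlap in 10 panels, and in those of Pfn1 and Flna all Eldr cKI points lie above all control points.

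The branching and capping genes were split evenly, with 6 of 12 higher and 6 lower in mean log value and a median log2 fold change of -0.08. The median became 0.23 with mitochondrial and predicted rows left out and the libraries rescaled, and 0.02 with quantile normalization. The split turned with single libraries: 10 of 12 were higher without Eldr cKI replicate 1 (median 0.52), and 2 of 11 without Eldr cKI replicate 3 (median -0.50). Arpc2, a core subunit of the Arp2/3 complex and the most abundant of the 12, was at 121, 62.0 and 137 FPKM among controls, whereas Eldr cKI libraries had 38.4, 126 and 229. The Eldr cKI libraries held both ends of the range (limma: 0.04 as log2 fold change, SE 1.06, adjusted p = 0.999). Actr3 (Arp3) was at 41.7, 5.01 and 18.3 FPKM over the control libraries, then 16.2, 45.9 and 71.6 over the Eldr cKI ones, with a log2 fold change of 1.19 (limma SE 1.30, adjusted p = 0.959). Actr2 (Arp2), its partner in the same complex, was at 36.7, 33.95 and 16.5 FPKM by control replicate, with 7.86, 18.5 and 59.3 by Eldr cKI replicate, with a log2 fold change of -0.38 (limma SE 1.31, adjusted p = 0.999). The lowest library was control replicate 2 for Actr3 and Eldr cKI replicate 1 for Actr2.

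Among the other subunits of the complex, Arpc5 had the narrowest range as a ratio of highest to lowest, 2.82-fold, from 14.7 to 41.5 FPKM. Arpc1b, the isoform of many nonmuscle cells, was above 0 in every library, at 2.98 to 27.8 FPKM, while its paralogue Arpc1a had a value above 0 in 1 library, Eldr cKI replicate 3, of 3.31 FPKM. Arpc4 was listed at 0 in control replicates 2 and 3, and Arpc3 at 0 in Eldr cKI replicate 1. Capzb, the β subunit of capping protein, was at 17.1, 91.4 and 7.18 FPKM among controls, whereas Eldr cKI libraries had 8.72, 28.3 and 28.5, so 1 control exceeded all other libraries (limma: -0.23 as log2 fold change, SE 1.33, adjusted p = 0.999). Of its α partners, Capza2 was above 0 in every library, at 2.58 to 27.6 FPKM, and Capza1 was listed at 0 in 3. Arpc5l was at 1.32 to 23.8 FPKM.

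Myosin, tropomyosin and contractile genes numbered 12, of which 10 had higher and 2 lower mean log values in Eldr cKI (median log2 fold change 0.25). The count was 6 of 12 without control replicate 3 and 6 of 12 without Eldr cKI replicate 3. Myh9, the heavy chain of nonmuscle myosin IIA, was the steadiest of the 55 genes. It was at 42.9, 34.5 and 40.4 FPKM over the control libraries (39.2 ± 4.30, SD, n = 3), then 37.5, 34.2 and 54.4 over the Eldr cKI ones (42.0 ± 10.8, SD, n = 3), a range of 1.59-fold. The log2 fold change was 0.07 (limma SE 1.23, 95% interval -2.34 to 2.48, adjusted p = 0.999). Myh10, the heavy chain of myosin IIB, was far lower, at 0.193 to 13.5 FPKM, and the transcript of 7433 bases gave Myh9 about 16.5 to 96.7 fragments per library.

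Myl6, the essential light chain, was also steady, at 119, 97.1 and 76.9 FPKM by control replicate (97.6 ± 21.0, SD, n = 3), with 64.2, 112 and 130.3 by Eldr cKI replicate (102 ± 34.1, SD, n = 3). Its log2 fold change was 0.03 (limma SE 1.07, adjusted p = 0.999). Myl12a, a regulatory light chain, was at 83.8, 19.4 and 63.0 FPKM among controls, whereas Eldr cKI libraries had 31.6, 78.5 and 103 (limma: 0.43 as log2 fold change, SE 1.18, adjusted p = 0.999), and its near copy Myl12b was at 9.05 to 94.6 FPKM. Both light chains were lowest in control replicate 2. Tpm3 was at 14.3 to 91.9 FPKM. Tpm4, a tropomyosin of nonmuscle filaments, was at 53.5, 65.8 and 10.03 FPKM over the control libraries, then 50.1, 69.9 and 139.8 over the Eldr cKI ones, with control replicate 3 alone far below the rest (limma: 1.22 as log2 fold change, SE 1.19, adjusted p = 0.959). Tagln2, a transgelin of nonmuscle cells, was listed at 82.0, 29.5 and 0 FPKM by control replicate, with 10.6, 34.2 and 139 by Eldr cKI replicate (limma: 1.501 as log2 fold change, SE 1.32, adjusted p = 0.959).

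The smooth muscle members were low, and they followed another order of libraries. Tagln (SM22α) was listed at 10.4, 0 and 5.92 FPKM among controls, whereas Eldr cKI libraries had 41.0, 18.0 and 0. Summed over Acta2, Actg2, Myh11, Tagln, Myl9 and Tpm2, FPKM was 44.4, 31.3 and 52.6 over the control libraries, then 106, 133 and 7.21 over the Eldr cKI ones. Eldr cKI replicate 3, the highest library in Actb, was the lowest in this sum, and in it 5 of the 6 genes were listed at 0. Myh11, a myosin heavy chain restricted to smooth muscle, was listed above 0 in control replicate 2 and Eldr cKI replicate 2 only. The 7 measured of 10 other smooth muscle and pericyte markers summed to 42.8 to 122 FPKM, with Des, which heart muscle also makes, among them, and their part in the sum was not tested. In bulk RNA, fewer cells of a type cannot be told apart from less RNA per cell.

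Crosslinkers and membrane linkers numbered 8, of which 7 had higher and 1, Rdx, had a lower mean log value in Eldr cKI. Their median log2 fold change was 0.95. Under each of the 14 alternatives 7 or all 8 were higher, and the median was between 0.41 and 1.57 when 1 library was left out. The alternatives reuse the same libraries, and some cannot change these fold changes, such as the fit with no filter on mean FPKM. None of the 8 passed, so this is a description of the means. The 8 fibroblast markers, collagens among them, summed to 82.3, 75.5 and 60.7 FPKM by control replicate, against 124, 143 and 134 by Eldr cKI replicate, with 5 to 7 of the 8 above 0 in each library. Those groups did not overlap, as for Flna and Pfn1, and the markers' part in either result was not tested. Flna, filamin A, which ties actin filaments into networks and to integrins, was at 18.5, 17.2 and 1.45 FPKM by control replicate (12.4 ± 9.48, SD, n = 3), with 38.8, 19.4 and 63.0 by Eldr cKI replicate (40.4 ± 21.8, SD, n = 3). All 3 Eldr cKI libraries lay above the controls. Its log2 fold change was 1.97 (limma SE 1.35, 95% interval -0.67 to 4.61, adjusted p = 0.959), and 0.99 without control replicate 3, where about 1.03 fragments had been read.

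Ezr, ezrin, which links actin to the membrane of epithelial microvilli, was listed at 154, 0 and 0 FPKM among controls, whereas Eldr cKI libraries had 0, 78.4 and 249. It was on or off by library in the split seen for the Actb to Actg1 ratio (limma: 2.33 as log2 fold change, SE 1.40, adjusted p = 0.959). Msn, moesin, of the same family, was by contrast steady, at 41.7, 22.6 and 39.0 FPKM over the control libraries (34.4 ± 10.3, SD, n = 3), then 36.7, 48.2 and 53.0 over the Eldr cKI ones (45.9 ± 8.39, SD, n = 3). Its range was 2.34-fold and its log2 fold change 0.44 (limma SE 1.23, adjusted p = 0.999). Rdx, radixin, the third of the family, was listed at 0 in Eldr cKI replicate 1 and at 4.38 to 41.3 FPKM elsewhere.

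Actn4, a nonmuscle α-actinin, was at 30.01, 16.01 and 7.88 FPKM by control replicate, with 8.50, 45.5 and 54.9 by Eldr cKI replicate (limma: 0.80 as log2 fold change, SE 1.33, adjusted p = 0.999). Actn1 followed at 2.14 to 23.5 FPKM. The focal adhesion proteins were low: Tln1, talin, which switches on integrins, was at 1.75 to 29.3 FPKM, and Vcl, vinculin, was listed at 0 in control replicates 2 and 3 and Eldr cKI replicate 2. Vim, vimentin, the intermediate filament of mesenchymal cells, was at 84.2, 37.2 and 10.5 FPKM among controls (44.0 ± 37.3, SD, n = 3), whereas Eldr cKI libraries had 41.8, 49.2 and 64.8 (51.9 ± 11.7, SD, n = 3). Its groups overlapped, with the 2 extremes both in controls (limma: 0.64 as log2 fold change, SE 1.23, adjusted p = 0.999).

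Tubulins with stathmin had the largest summed FPKM of the roles in 6 of the 6 libraries, where in Eldr cKI replicate 3 it was 1069.5 FPKM against 1069.2 for the actins. They made up 27.4%, 40.6% and 30.7% of it by control replicate and 28.2%, 28.8% and 22.8% by Eldr cKI replicate. Tuba1b was at 314, 325 and 174 FPKM over the control libraries (271 ± 84.1, SD, n = 3), then 194, 292 and 345 over the Eldr cKI ones (277 ± 76.5, SD, n = 3). The groups overlapped over nearly their whole range, which was 1.98-fold (limma: 0.04 as log2 fold change, SE 0.87, 95% interval -1.67 to 1.76, adjusted p = 0.999). Tuba1c was at 202, 224 and 160 FPKM by control replicate (195 ± 32.4, SD, n = 3), with 149, 265 and 246 by Eldr cKI replicate (220.2 ± 62.1, SD, n = 3), with a log2 fold change of 0.14 (limma SE 0.93, adjusted p = 0.999). Tuba1a, the α-tubulin of neurons above all, was at 200.2, 206 and 47.3 FPKM among controls, whereas Eldr cKI libraries had 35.96, 91.3 and 133 (limma: -0.71 as log2 fold change, SE 1.07, adjusted p = 0.999). Because the 3 genes are 97.1% to 98.3% identical in coding sequence, their sum is firmer than the split among them. It leaves out any reads given to their predicted copies. The sum was 716, 756 and 382 FPKM over the control libraries, then 379, 648 and 724 over the Eldr cKI ones. It was lowest in control replicate 3 and Eldr cKI replicate 1.

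The β-tubulins were lower and less even. Tubb5, the commonest β-tubulin of dividing cells, was at 180, 104 and 35.5 FPKM by control replicate, with 7.25, 85.0 and 191 by Eldr cKI replicate, a range of 26.4-fold (limma: -0.78 as log2 fold change, SE 1.14, adjusted p = 0.999). In Eldr cKI replicate 1, 4 of the 6 β-tubulins were listed at 0 and the ratio of summed α- to summed β-tubulin reached 23.4, against 2.28 to 6.03 in the other libraries. That library had the smallest number of genes above 0 and the largest share of predicted genes, and their part in the ratio was not tested. Tubb4a, a β-tubulin of brain, was listed at 15.3, 21.4 and 0 FPKM by control replicate, and at 0 in each of the 3 Eldr cKI libraries. Its values together stood for about 8.78 fragments (limma: -2.84 as log2 fold change, SE 1.42, unadjusted p = 0.0456, adjusted p = 0.959). Photoreceptor genes summed to 922, 1195 and 0 FPKM among controls, whereas Eldr cKI libraries had 0, 5.51 and 0, so Tubb4a was listed above 0 in the 2 libraries rich in them. The 7 neuron markers summed to 73.6, 200.5 and 142 FPKM by control replicate, against 43.1, 39.2 and 30.9 by Eldr cKI replicate, with 2 to 7 of the 7 above 0, and these groups did not overlap. The part of either marker list in the values of Tubb4a and Tuba1a was not tested. The remaining β-tubulins were detected unevenly: Tubb4b was listed at 0 to 65.3 FPKM, Tubb2a at 0 to 46.1, Tubb6 at 0 to 39.8 and Tubb2b at 0 to 18.7. Tuba4a, an α-tubulin of muscle and platelets, was above 0 in every library, at 4.80 to 27.7 FPKM, and Tuba8 was listed above 0 in 2. Tubg1, the γ-tubulin that starts microtubules, was above 0 only in control replicate 1, at 5.34 FPKM. Stmn1, stathmin, which takes tubulin dimers out of use in dividing cells, was listed at 8.69, 76.4 and 0 FPKM over the control libraries, then 5.49, 2.18 and 47.5 over the Eldr cKI ones (limma: 0.14 as log2 fold change, SE 1.42, adjusted p = 0.999), with 1 high library in each group.

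As a set, the genes varied more between libraries than between groups. Summed FPKM of the 55 genes was 3960.2, 2608 and 1509 by control replicate (2693 ± 1228, SD, n = 3), with 1521, 3091 and 4691 by Eldr cKI replicate (3101 ± 1585, SD, n = 3). As a share of all FPKM this was 1.67%, 1.15% and 0.351% among controls, whereas Eldr cKI libraries had 0.805%, 1.29% and 1.96%. With mitochondrial and predicted rows left out of the total, the shares were 3.15%, 2.73% and 1.31% over the control libraries, then 3.33%, 2.83% and 3.21% over the Eldr cKI ones. On that base 5 libraries lay between 2.73% and 3.33%, Eldr cKI replicate 1 was the highest and no longer among the lowest, and control replicate 3 stood alone at 1.31%. In control replicate 3, 10 hepatocyte genes held 6.36% of the same total, against 0.0945% to 0.590% in the other libraries, and their part in the low share was not tested. Of the 55 genes, 38 were highest in control replicate 1 or Eldr cKI replicate 3, the 2 libraries with the largest estimated depth. Those libraries also had the fewest of all rows at 0, 25.0% and 29.8%, against 51.4% to 63.0% in the others. The share of all rows highest there was not computed, so the count is not shown to be particular to these genes.

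**Figure D5:**
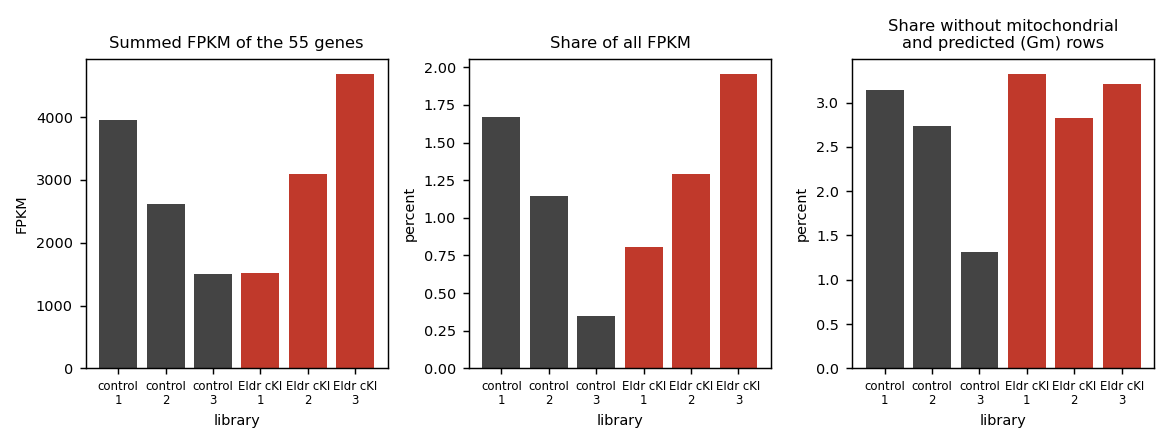
Summed FPKM of the 55 genes per library, their share of all FPKM, and their share with mitochondrial and Gm rows left out of the total, with controls in grey and Eldr cKI in red. The range of 0.351% to 1.96% narrows to 2.73% to 3.33% in 5 libraries on the last base, with control replicate 3 apart at 1.31%.

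The rest of the pathway gave the same count of calls. Of 48 further actin regulators in the fit, 0 passed in either direction, 32 had higher and 16 lower mean log values, and the median log2 fold change was 0.32. Tpm1, the tropomyosin shared by heart and nonmuscle cells, was their most abundant member, at 128, 211 and 172 FPKM by control replicate, with 159, 419 and 220 by Eldr cKI replicate (limma: 0.55 as log2 fold change, SE 0.93, adjusted p = 0.999). Ctnna1, α-catenin, and Itgb1, the β1 integrin, were both lowest in Eldr cKI replicate 1, at 19.6 and 3.97 FPKM. Of 38 genes for tubulin folding and microtubule binding, 0 passed, 15 had higher and 23 lower mean log values, and the median was -0.34. Cct5, a subunit of the chaperonin that folds actin and tubulin, was listed at 0 in Eldr cKI replicate 1, the library in which most β-tubulins were at 0, and at 4.19 to 212 FPKM in the others. Cct2 and Tcp1, subunits of the same chaperonin, were at 11.6 and 12.5 FPKM in that library.

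SRF, the transcription factor that drives many actin genes when monomer is scarce, binds the CArG box, a 10-base motif with an A- and T-rich core. Only exact matches to CC, then A or T alone, then GG were counted. The pattern is its own reverse complement, so a single search covers both strands. Promoter windows of 300 bases from RefSeq (GRCm38.p6) were found for 46 of the 55 members, and 5 of them (10.9%) held the motif, against 1.70% of the 9168 genes of the table with a window. These windows are shown for the 4 whose box lies inside the window with its flanks, written 5′ to 3′ on the strand of the gene, with the box in capitals.
Actg1 (chr11:120348556-120348605, minus strand): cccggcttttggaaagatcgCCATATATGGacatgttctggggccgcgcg
Myl6 (chr10:128493030-128493079, minus strand): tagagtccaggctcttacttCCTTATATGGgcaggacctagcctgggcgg
Myl9 (chr2:156775283-156775332, plus strand): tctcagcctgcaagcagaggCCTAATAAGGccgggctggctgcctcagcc
Vcl (chr14:20929151-20929200, plus strand): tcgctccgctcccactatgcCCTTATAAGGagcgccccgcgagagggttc
The boxes begin 90, 50, 161 and 227 bases before a transcript start, and the fifth, of Arpc4, begins at the window's edge. The Myl6 box lies inside the deposited span of its gene, so the start it precedes is an internal one. The other boxes lie upstream of the deposited spans. A match describes the letters only. The 5 genes did not share a pattern over libraries: Actg1 and Myl6 were among the steadier members, while Vcl was at 12.4, 0 and 0 FPKM among controls, whereas Eldr cKI libraries had 10.1, 0 and 17.0, and Myl9 was at 9.69, 13.3 and 10.2 FPKM over the control libraries, then 0, 37.1 and 7.21 over the Eldr cKI ones. Their median log2 fold change was 0.03, against 0.14 for the other 50 members. Those 50 include the members with no window, which were not searched. Srf itself was at 10.5, 3.79 and 11.0 FPKM by control replicate, with 3.80, 19.7 and 4.87 by Eldr cKI replicate (limma: -0.06 as log2 fold change, SE 1.43, adjusted p = 0.999), and of its list of 5 genes in the fit 0 passed.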

How the data were processed

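The submitters' processing notes list cutadapt, HISAT2 2.0.5 and StringTie, with no settings, and name hg19, whereas the identifiers are those of the mouse: 11017 of 11955 rows, and 49 of the 55 members, have the span and strand of GENCODE M21 (GRCm38). The spans of Acta2, Myh11, Myl12b, Tuba1a, Tuba1c and Tubb6 differ from it. The labels' protocols leave the choice between poly(A) selection and ribosomal RNA removal, and any use of strand in counting, not given in the sources used here.

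The authors deposited FPKM for every library, per the file headers. Beside these stand, per the file headers, group means of log2(FPKM + 1), the log2 fold change between them, the fold as a plain ratio, and a p-value with its q-value. Count data were not used here.

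Here limma 3.58.1 (R 4.3.3) took log2(FPKM + 1) of the 6 libraries, with a single term for group, in the 10772 rows with a mean FPKM of at least 0.5. Moderation used a mean-variance trend, so SEs are set by the trend over genes and not by a gene's own spread, and adjustment was by Benjamini-Hochberg over all rows. The pseudocount of 1 understates fold changes of low genes. Depth was read from FPKM times length in genes with 1 transcript (tolerance 1 percent, 28.8% to 48.0% of low values within 0.05 of whole steps), so estimated fragments are rough and whole reads could not be recovered. The length was that of the principal GENCODE transcript. A value of 0 means only that a gene was listed at 0. Named members were the 4 actins, Vim, Stmn1, the 4 most abundant of each other role, and any member past the threshold or with groups that do not overlap. Other members are given by their levels, and Tubb4a, Actc1, Tagln and the genes with CArG boxes were chosen after their values were seen. Members and lists were chosen with earlier results of these data known. Python 3.11.15, pandas 2.3.3, numpy 2.4.6, Biopython 1.88 and matplotlib 3.10.9 were used.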

Additional observations from a re-analysis of the deposited data

How the results depend on the processing

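No member passed under any of the 14 alternatives or with the Tubgcp genes counted as members (limma). The number of all genes called was 3, and became 8 with a pseudocount of 0.1, 1 with a mean FPKM of at least 5, 0 without the mean-variance trend, 1 with quantile normalization, and 0 without control replicate 3 and Eldr cKI replicate 1 together, an alternative chosen after seeing the data. It ranged from 0 to 12 when 1 library was left out. The replicate numbers did not pair the libraries (correlations of deviations -0.17, 0.03 and -0.15 for numbers 1, 2 and 3). With the number as a block, 5 genes were called, and 0 members. At an unadjusted p under 0.05 (limma), the main fit held 1 of 55 members and 252 of 10772 genes. With mitochondrial and predicted rows left out and the libraries rescaled, it was 4 of 55 and 336 of 11709, so the members' share was then the larger. Members numbered 0 with a pseudocount of 0.1, a mean FPKM of at least 5, quantile normalization or the block. They numbered 0 to 2 when 1 library was left out. Of the 26 named members, 12 kept their direction in every alternative whose fit held them, though not their size. The fits with no filter, with a mean FPKM of at least 5, without the trend and with the block cannot change a fold change. Direction was fixed in advance in these. Actg2, among the 12, was not in the fit with a mean FPKM of at least 5 or without Eldr cKI replicate 2. That library held its only value above 0, so its direction rests on that library. Leaving out 1 library, Ezr ran from 0.73 to 4.76, Actr3 from 0.43 to 1.85 and Tpm4 from 0.40 to 1.70. Cfl1 ran from 0.07 to 1.25, Actn4 from 0.33 to 1.61, Tmsb4x from -1.15 to -0.18 and Tuba1a from -1.41 to -0.18 on the log2 scale. Without control replicate 3 and Eldr cKI replicate 1 the log2 fold change of Stmn1 became -1.14 and that of Tuba1b -0.011. With mitochondrial and predicted rows left out and the libraries rescaled, it became 0.076 for Capzb and 0.29 for Tmsb10, which was at 0.12 with quantile normalization. Leaving out 1 library at a time, log2 fold changes ran from -0.71 to 2.70 for Acta2, -0.28 to 1.58 for Actb, -1.11 to 0.27 for Actr2, -0.53 to 0.74 for Arpc2, -1.01 to 0.74 for Capzb, -0.19 to 0.92 for Myl12a and -0.18 to 0.33 for Myl6. They ran from -1.45 to 1.68 for Stmn1, -0.38 to 2.80 for Tagln2, -0.62 to 0.50 for Tmsb10, -0.25 to 0.28 for Tuba1b, -0.013 to 0.40 for Tuba1c, -1.73 to 0.54 for Tubb5 and -0.13 to 1.31 for Vim. The cause was not tested. The set's median, 0.14, was 0.60 with mitochondrial and predicted rows left out and the libraries rescaled. The limma SEs of members ran from 0.80 to 1.45 on the log2 scale. Most members rested on few fragments, and the part of depth in the spread between libraries was not tested.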
